A study of Sus scrofa with 6 samples.

Results

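The genes described here build, modify, cut or bind the extracellular matrix. They were taken from the platform annotation by symbol, namely collagens (COL followed by a digit), laminin chains (LAMA, LAMB, LAMC), integrin chains (ITGA, ITGB), matrix metalloproteases (MMP), their tissue inhibitors (TIMP), collagen prolyl hydroxylases (P4HA), lysyl hydroxylases (PLOD), lysyl oxidases (LOX) and POSTN, FN1, SPARC, DCN, LUM and THBS1. This gave 55 of the 6765 genes that had a probe set with exactly 1 symbol, measured by 104 of the 23999 probe sets tested. Where a gene had several probe sets, the one with the highest mean signal was taken for it. One of the 55, ITGB1BP2 (melusin), matched by its letters only, since it encodes an intracellular protein that binds integrin beta 1. No probe set carried the symbol of P4HA1, PLOD2, COL1A1, COL4A1 or any laminin alpha chain, and these genes were not analysed here.

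IPEC-1 is a non-transformed epithelial line from the small intestine of newborn piglets, and the labels give jejunum as its source. Cells were grown on porous membranes as air–liquid interface culture (ALI), with only a thin film of liquid on the apical side, or as submerged membrane culture (SMC), with a column of medium above the cells. Both groups received the same medium with insulin, transferrin, selenium and epidermal growth factor, from which fetal bovine serum was withdrawn stepwise before the last weeks of culture, and neither carried a genetic change. Each group holds 3 arrays, 1 from each of the passages P109, P111 and P113, so that the 3 arrays of a group are passages of a single cell line and p-values measure the spread between these.

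Collagen chains fold into triple helices only after enzymes of the endoplasmic reticulum have hydroxylated many of their proline and lysine residues. The prolyl 4-hydroxylases, with an alpha subunit from a P4HA gene, stabilise the helix, and the lysyl hydroxylases of the PLOD family prepare lysines for sugar attachment and cross-links. Both enzyme families use molecular oxygen, iron, 2-oxoglutarate and ascorbate, and several of their genes are known to respond to hypoxia-inducible factors. Outside the cell, lysyl oxidases cross-link the fibres, while an epithelium rests on a basement membrane of laminins, type IV collagen and nidogens, to which it binds through integrins.

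All values are log2 signals, and fold changes are given for ALI relative to SMC. The array medians lay between 6.33 and 6.38, and the lowest 25% of values ended between 4.52 and 4.61, a range in which no signal was separated from background. The epithelial identity of the cells was visible in both groups. None of 12 epithelial markers, with EPCAM, CDH1 and KRT8 among them, passed the test or lay in the lowest 25% on all arrays. Of 11 markers of fibroblasts and smooth muscle, VIM and ACTG2 were lower in ALI and 9 were not called, and CNN1 and FAP lay in the lowest 25% on all arrays. Of 5 endothelial markers, CDH5 and KDR lay there too, while PECAM1 and ESAM had no array there, and PECAM1 was lower in ALI. Of 3 leukocyte markers, PTPRC lay in the lowest 25% on all arrays, while CD14 and CD3E had no array there.

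Of 6 collagen hydroxylases and lysyl oxidases 2 were lower in ALI, as was 1 of 6 matrix glycoproteins and proteoglycans, while none of the collagen chains passed the test. P4HA2 was 3.59-fold lower, PLOD1 2.37-fold lower and POSTN 2.82-fold lower. At an adjusted p under 0.05 in limma, these 3 of the 55 genes (5.45%) were called lower, against 1.51% of all 6765 genes. None of the 55 was called higher, against 1.02% of all genes, although 4 had an unadjusted p under 0.05 and a positive difference in limma, and 5 in the methods' t-test. With the passage as a block, 4 of the 55 (7.27%) were lower and 0 were higher, against 3.75% and 2.25% of all genes. The median log2 fold change was 0.04 over the 55 genes and 0.01 over all genes. Without ALI replicate 1 or without ALI replicate 2, only 1 of the 55 was called lower, and after the methods' t-test with Benjamini-Hochberg adjustment 0 were called.

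The groups did not overlap, with ALI lower, for 8 of the 55 genes (14.5%), against 10.9% of all genes. They did not overlap, with ALI higher, for 5 of the 55 (9.09%), against 11.0% of all genes. Beside P4HA2, PLOD1 and POSTN, the first set held PLOD3, FN1, ITGAV, ITGB3 and ITGB5, and the second set held LAMB2, COL6A2, TIMP3, MMP9 and MMP20. The 95% interval of the fold change stayed within 1.5-fold for 41 of the 55 genes (74.5%), against 76.1% of all genes. On all 6 arrays 12 of the 55 genes (21.8%) lay in the lowest 25% of the signals, namely COL15A1, LUM, DCN, LOXL1, ITGA6, ITGA8, ITGB2, ITGB1BP2, MMP1, MMP2, MMP3 and MMP20. For these genes no difference can be read as a difference in RNA.

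**Figure D1:**
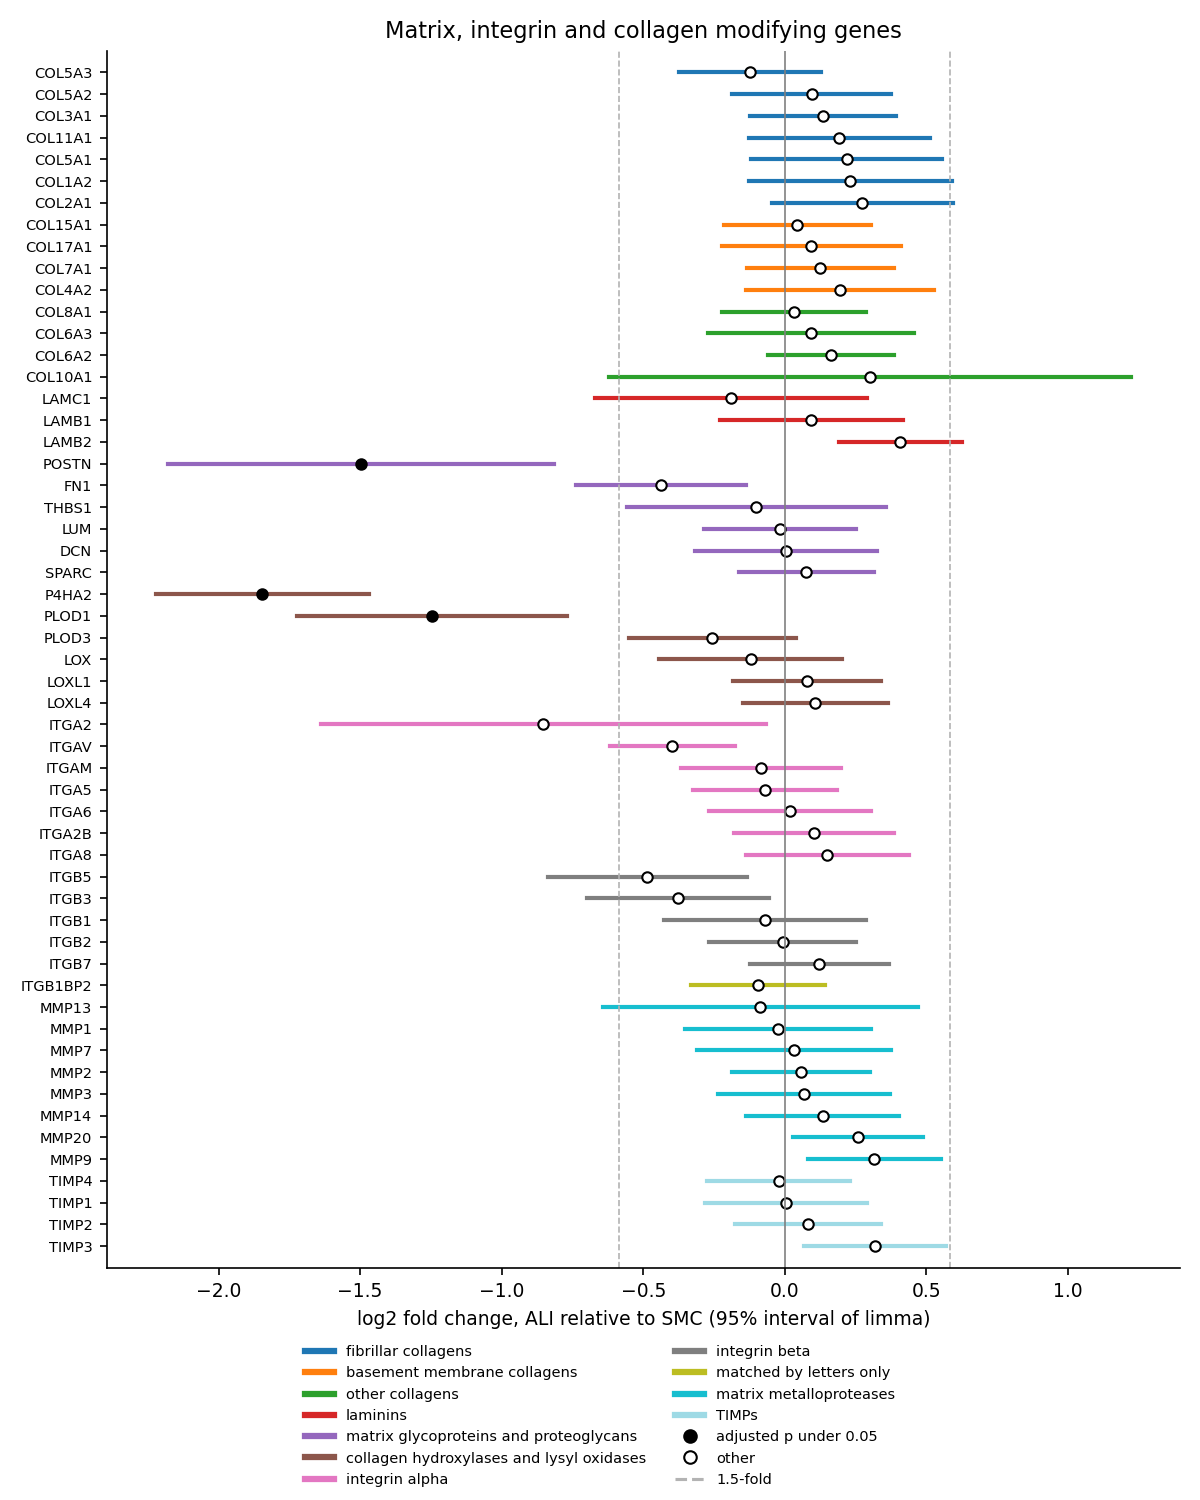
Log2 fold change of ALI relative to SMC for the 55 genes, ordered by role. Points give limma's estimate from 3 arrays per group and bars its 95% interval; filled points are the 3 genes with an adjusted p under 0.05 (P4HA2, PLOD1 and POSTN), all left of the dashed line at a 1.5-fold decrease. The 15 collagen chains lie between -0.12 and 0.30.

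P4HA2 encodes a catalytic alpha subunit of collagen prolyl 4-hydroxylase. Its log2 signal was 7.49, 7.95 and 7.50 on the ALI arrays of passages P109, P111 and P113, and 9.69, 9.27 and 9.53 on the SMC arrays. All ALI values were below all SMC values. The means were 7.65 ± 0.265 (SD, n = 3) and 9.49 ± 0.213 (SD, n = 3), a log2 fold change of -1.85 (standard error of the fit, SE, 0.16, 95% interval -2.22 to -1.47, adjusted p = 0.00305 in limma). Within the passages the differences were -2.19, -1.31 and -2.03. A fall was seen with each of the 6 arrays left out (log2 fold change -2.0 to -1.75, adjusted p from 0.00227 to 0.0248).

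The second probe set of P4HA2 gave a smaller difference in the same direction. It read 6.31, 6.35 and 6.35 in ALI against 7.41, 7.24 and 7.18 in SMC, again without overlap. Its log2 fold change of -0.94 (SE 0.10, adjusted p = 0.00592) was a 1.92-fold decrease and stayed called with any array left out (adjusted p from 0.0132 to 0.0413). The sizes of the 2 probe sets, 3.59-fold and 1.92-fold, had intervals that did not overlap (-2.22 to -1.47 and -1.18 to -0.70 on the log2 scale). The array therefore gives a direction for P4HA2 that both probe sets share and a size that depends on the probe set.

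PLOD1, a lysyl hydroxylase, had log2 signals of 7.82, 7.84 and 8.38 in ALI and 9.55, 8.89 and 9.35 in SMC. The lowest SMC value, that of passage P111, lay above every ALI value. The log2 fold change was -1.25 (SE 0.21, 95% interval -1.72 to -0.77, adjusted p = 0.0266), with -1.72, -1.05 and -0.97 within the passages. Its second probe set read 5.22, 5.42 and 5.48 in ALI and 6.22, 5.88 and 6.10 in SMC, a log2 fold change of -0.69 (SE 0.13, adjusted p = 0.037). Both probe sets thus separated the groups, and as for P4HA2 the difference was smaller in the second. The call of the first probe set was lost without ALI replicate 1 (adjusted p = 0.116), ALI replicate 2 (0.0755), SMC replicate 1 (0.0754) or SMC replicate 3 (0.0684), and the second probe set stayed called only when ALI replicate 3 was the array left out (0.0747 to 0.145 otherwise).

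The related enzymes differed less. PLOD3, a lysyl hydroxylase that can also attach sugars to collagen, read 8.75, 8.74 and 8.57 in ALI against 9.17, 8.86 and 8.80 in SMC. These values did not overlap, but the log2 fold change of -0.26 (95% interval -0.55 to 0.04, adjusted p = 0.412) did not pass the test. LOX, the founding lysyl oxidase, had log2 signals of 8.90, 8.56 and 9.0 in ALI and 9.09, 8.83 and 8.90 in SMC, with a log2 fold change of -0.12 from each of its 2 probe sets (95% interval of the first, -0.44 to 0.20). LOXL4 had a log2 fold change of 0.11 (95% interval -0.15 to 0.36), and LOXL1, at 0.08, lay in the lowest 25% of the signals on every array.

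**Figure D2:**
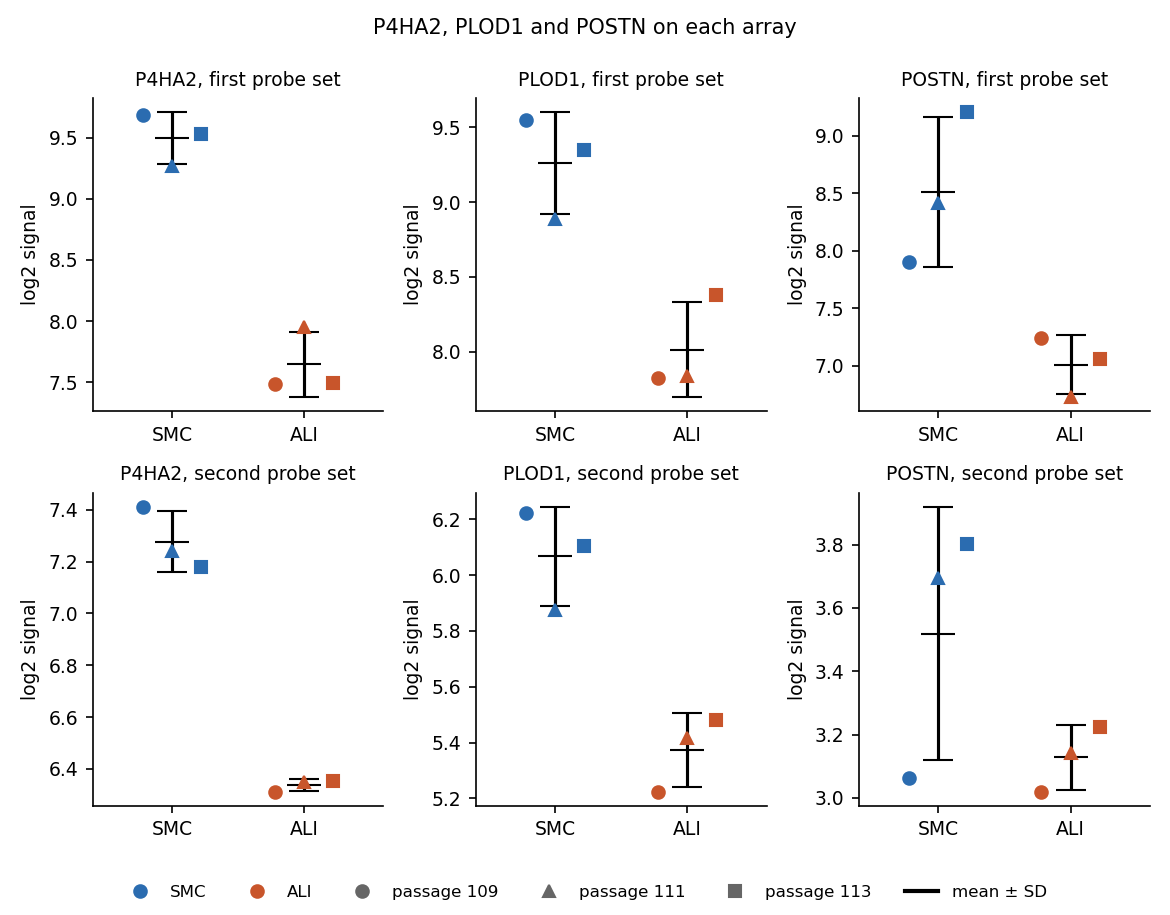
Log2 signal on each array for both probe sets of P4HA2, PLOD1 and POSTN, the 3 genes called lower in ALI. Symbols mark the passage, and black bars give the mean and the SD of 3 arrays. ALI lies below SMC without overlap in all panels other than the second probe set of POSTN, whose signals between 3.02 and 3.80 are in the lowest 25% of the arrays.

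POSTN, or periostin, is a secreted matrix protein that binds integrins and is best known from fibroblasts and tissue repair. Its log2 signal was 7.24, 6.73 and 7.06 in ALI and 7.91, 8.42 and 9.20 in SMC at passages P109, P111 and P113. The SMC arrays thus spread over more than a log2 unit, and the difference within the passages was -0.67, -1.69 and -2.14. The log2 fold change was -1.50 (SE 0.30, 95% interval -2.18 to -0.82, adjusted p = 0.0485). The call was lost without any of the 3 ALI arrays (adjusted p = 0.124, 0.125 and 0.0844 without replicates 1, 2 and 3) or without SMC replicate 2 (0.18), after quantile normalization (0.0529) and when both of its probe sets were averaged (0.0993).

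Of 11 markers of fibroblasts and smooth muscle, 2 fell with POSTN and 9 were not called. VIM, the intermediate filament vimentin, was 11.74 ± 0.237 in ALI and 13.08 ± 0.091 in SMC (SD, n = 3 each; adjusted p = 0.00442 in limma). ACTG2, the smooth muscle gamma actin, was 5.84 ± 0.53 and 8.51 ± 0.746 (SD, n = 3 each; adjusted p = 0.0158 in limma), and its SMC array of passage P113 was the highest, as for POSTN. The 9 others had log2 fold changes from -0.50 for PDGFRB and -0.28 for S100A4 to 0.10 for ACTA2 and 0.21 for CNN1, with -0.06 for TAGLN, -0.08 for PDPN, -0.02 for THY1, 0.07 for DES and 0.08 for FAP. The list thus had no common direction, with 7 negative and 4 positive values and a median of -0.06. Its summed signal was 12.5 to 13.0 in ALI and 13.6 to 13.7 in SMC on the log2 scale, and without VIM the groups overlapped (11.3 to 12.3 and 11.8 to 12.2). Signals were summed before taking the log2, so that PDPN (means 10.86 in ALI and 10.94 in SMC) and TAGLN (10.12 and 10.17) made up most of the sum without VIM. That sum could show little of a difference in dimmer genes such as ACTG2 or PDGFRB. FAP and CNN1 lay in the lowest 25% on all arrays, as did the fibroblast proteoglycans DCN and LUM. The part of these markers in the POSTN result was not tested. In RNA from a whole culture, fewer cells of a type and less RNA per cell cannot be told apart.

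FN1, or fibronectin, a glycoprotein that links collagen to integrins, read 13.22, 13.27 and 13.01 in ALI against 13.52, 13.81 and 13.47 in SMC. The groups did not overlap, and the log2 fold change of -0.44 (95% interval -0.74 to -0.14) had an adjusted p of 0.164 and of 0.0577 with the passage as a block. A second probe set gave the same log2 difference of -0.44 with a far wider 95% interval, -1.57 to 0.68, because its ALI value at passage P113 was 6.92 against 8.50 and 8.98 at the other two. Its remaining probe sets were in the lowest 25% of the signals. THBS1, the adhesive glycoprotein thrombospondin, overlapped between the groups (12.26, 12.10 and 11.45 in ALI, 12.15, 12.00 and 11.96 in SMC), with a log2 fold change of -0.10 (95% interval -0.56 to 0.36). All 5 of its probe sets had a negative difference, from -0.56 to -0.10, and none was called. SPARC, a collagen-binding protein that is secreted by many cells, had a log2 fold change of 0.08 (95% interval -0.16 to 0.31). DCN and LUM, small proteoglycans that bind collagen fibrils, had 0.00 and -0.02 at background-like signals.

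None of the 15 collagen chains passed limma's test, without or with the passage as a block (lowest adjusted p 0.419 and 0.184). Of all genes, 1.51% were called lower and 1.02% higher (3.75% and 2.25% with the block). The absence of calls among 15 genes thus does not set the collagens apart from other genes. Their log2 fold changes ranged from -0.12 for COL5A3 to 0.30 for COL10A1, with a median of 0.13. Of the 15, 14 were above 0, against 52.1% of all genes and 60% of the 55, and this count was not tested. For 12 of them the 95% interval stayed within 1.5-fold, the exceptions being COL1A2, COL2A1 and COL10A1. None of the 30 probe sets with 1 collagen symbol was called. Probe sets without a symbol, 13732 of the 23999 tested, were assigned to no gene, so that any collagens among them were not examined.

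COL5A2 and COL3A1 encode fibrillar chains of types V and III, which are found together in thin fibrils. COL5A2 read 5.64, 5.75 and 5.40 in ALI and 5.59, 5.42 and 5.49 in SMC, so that its groups overlapped. Its log2 fold change was 0.09 (SE 0.12, 95% interval -0.19 to 0.38, adjusted p = 0.78). The other probe set of COL5A2 read 4.87, 4.89 and 4.75 in ALI and 5.10, 4.62 and 5.0 in SMC, with a log2 fold change of -0.07 (SE 0.14, 95% interval -0.39 to 0.25, adjusted p = 0.876). The 2 probe sets therefore had opposite signs around 0, and leaving out single arrays moved the first between 0.02 and 0.19 and the second between -0.21 and 0.03. COL3A1, with 1 probe set, read 5.02, 5.06 and 5.26 in ALI and 5.09, 4.95 and 4.90 in SMC, a log2 fold change of 0.13 (95% interval -0.12 to 0.39, adjusted p = 0.649).

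Among the other fibrillar chains, COL2A1, the main collagen of cartilage, had a log2 fold change of 0.27 (95% interval -0.05 to 0.59) with 0.30, 0.27 and 0.24 within the passages. COL5A3 had 3 probe sets with log2 fold changes of -0.12, 0.38 and 0.21, of which the second separated the groups (5.82, 6.01 and 5.61 against 5.38, 5.46 and 5.45; adjusted p = 0.195). Of the collagens of the basement membrane zone, COL4A2, a chain of the type IV network, had 0.20 (95% interval -0.14 to 0.53) at low signals from 4.57 to 5.12. COL17A1, a transmembrane collagen of hemidesmosomes, had 0.09, and COL15A1, at background-like signals, 0.04. COL6A2, a chain of beaded filaments, read 7.13, 7.15 and 7.04 in ALI and 6.95, 6.89 and 7.0 in SMC, values that barely separated the groups (log2 fold change 0.16, adjusted p = 0.497). COL8A1 had a log2 fold change of 0.03. COL10A1, a short-chain collagen of growing cartilage, had the widest 95% interval of the 55 genes, -0.62 to 1.22, since its ALI signals were 5.96, 7.63 and 6.60 and its SMC signals 5.97, 6.38 and 6.94.

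Laminins are heterotrimers of an alpha, a beta and a gamma chain. LAMB2, the beta chain of several basement membrane laminins, read 9.58, 9.52 and 9.60 in ALI and 9.11, 9.20 and 9.17 in SMC. All ALI arrays were higher, by 0.47, 0.32 and 0.43 within the passages, yet the log2 fold change of 0.41 (95% interval 0.19 to 0.62) had an adjusted p of 0.0824 and of 0.0664 with the block. LAMB1, its counterpart in laminins of early basement membranes, had a log2 fold change of 0.09 (95% interval -0.23 to 0.42), and its second probe set one of -0.23. LAMC1, the common gamma chain, had -0.19 (95% interval -0.67 to 0.29), with 9.84, 9.90 and 9.47 in ALI and 10.16, 10.16 and 9.46 in SMC. In this probe set both groups were thus lowest at passage P113, where they differed by 0.01. The other probe sets of LAMC1 gave log2 fold changes of 0.03, -0.35 and -0.33, with differences of 0.32, -0.03 and 0.34 at passage P113. None was called, and the one at -0.35 separated the groups.

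Integrins are heterodimers of an alpha and a beta chain, and none of the 12 chains passed limma's test without the block. ITGA2, the alpha chain of a collagen receptor, read 6.23, 6.89 and 5.99 in ALI and 7.67, 7.55 and 6.45 in SMC. The groups overlapped, because the SMC array of passage P113 was below the ALI array of passage P111, but ALI was lower within each passage, by -1.44, -0.66 and -0.46. The log2 fold change was -0.85 (SE 0.34, adjusted p = 0.308). With the passage as a block, the SE was 0.18 and the adjusted p 0.0357, so that ITGA2 was the 1 gene of the 55 called with the block only. Its second probe set lay in the lowest 25% of the signals and had a log2 fold change of -0.27.

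ITGAV, the alpha chain of receptors for vitronectin, fibronectin, osteopontin and periostin, read 7.91, 8.02 and 7.96 in ALI and 8.38, 8.40 and 8.31 in SMC. These values did not overlap, and the log2 fold change was -0.40 (95% interval -0.62 to -0.18, adjusted p = 0.0918; 0.07 with the block). ITGB5, one of the beta chains that pair with it, read 8.96, 9.05 and 9.16 in ALI and 9.82, 9.57 and 9.25 in SMC, a log2 fold change of -0.49 (95% interval -0.84 to -0.14, adjusted p = 0.186). The ITGB5 difference was -0.86, -0.52 and -0.08 within the passages. ITGB3, another partner, read 8.38, 8.0 and 8.42 in ALI and 8.58, 8.57 and 8.78 in SMC, with a log2 fold change of -0.38 (95% interval -0.70 to -0.06, adjusted p = 0.264). Each of these 3 chains was lower in ALI at every passage, and none passed the test.

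ITGB1, the beta chain shared by most matrix receptors, read 12.66, 12.65 and 12.19 in ALI and 12.71, 12.60 and 12.40 in SMC. Its log2 fold change was -0.07 (95% interval -0.43 to 0.29). ITGB7, which is known from lymphocytes homing to the gut, had a log2 fold change of 0.12, and ITGA8, at background-like signals, one of 0.15. The remaining integrin chains, ITGA2B, ITGA5, ITGA6, ITGAM and ITGB2, ranged from -0.08 to 0.10.

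**Figure D3:**
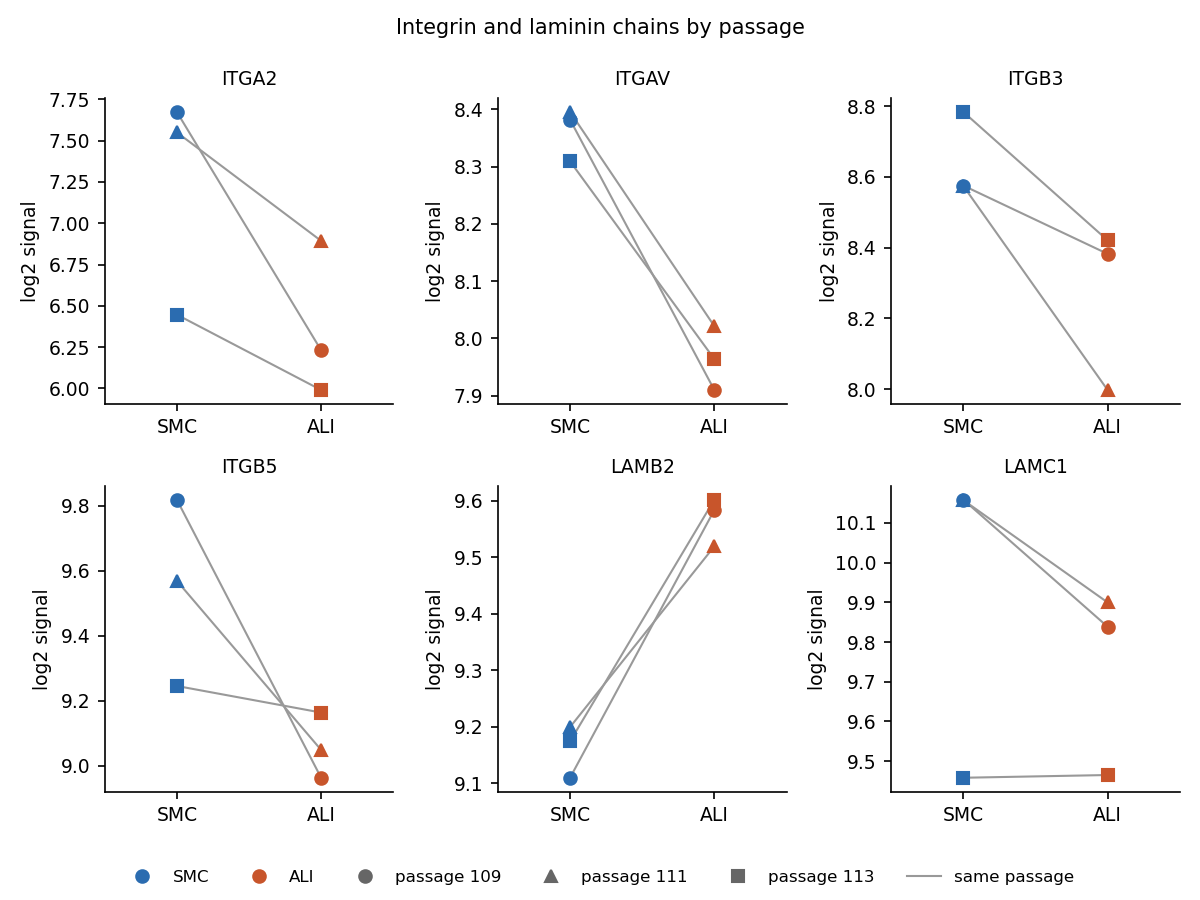
Log2 signal of 4 integrin chains and 2 laminin chains on the 6 arrays, with grey lines joining the SMC and the ALI array of the same passage (n = 1 array per point). ITGA2, ITGAV, ITGB3 and ITGB5 decline and LAMB2 rises from SMC to ALI on every line, while LAMC1 is level at passage P113; none of these differences passed the test without the passage as a block.

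No matrix metalloprotease and no TIMP passed the test. MMP7, or matrilysin, an epithelial metalloprotease, overlapped fully (11.38, 11.58 and 11.18 in ALI, 11.49, 11.09 and 11.45 in SMC), with a log2 fold change of 0.03 (95% interval -0.31 to 0.38). MMP9, a gelatinase, read 4.85, 4.76 and 4.85 in ALI against 4.52, 4.39 and 4.59 in SMC, which separated the groups (log2 fold change 0.32, adjusted p = 0.196), with 2 of the arrays in the lowest 25% of the signals. MMP13, a collagenase, had -0.09 (95% interval -0.64 to 0.47). Of the 8 metalloproteases, 4 lay in the lowest 25% on all arrays, among them the collagenase MMP1, the gelatinase MMP2 and the stromelysin MMP3.

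Of the 4 inhibitors, 3 had a positive and 1 a negative log2 fold change. TIMP1 read 11.06, 10.99 and 11.13 in ALI and 11.16, 11.17 and 10.83 in SMC, a log2 fold change of 0.00 (95% interval -0.28 to 0.29). TIMP3, which is bound to the matrix, read 7.30, 7.13 and 7.13 in ALI and 6.75, 6.90 and 6.95 in SMC, higher by 0.32 on the log2 scale with an adjusted p of 0.227. The groups of TIMP3 did not overlap in this probe set, while TIMP4, at -0.02, overlapped. In the other probe sets of TIMP3 the groups overlapped, with log2 fold changes of 0.06 and, at background-like signals, 0.04. The other probe set of TIMP4, also at background-like signals, separated the groups with a log2 fold change of 0.36. TIMP2 had 2 probe sets that differed. The one that stood for the gene gave 0.08 (95% interval -0.18 to 0.34). The other, named after its values were seen, read 8.14, 8.37 and 8.33 in ALI and 7.04, 7.71 and 7.73 in SMC, a log2 fold change of 0.79 (95% interval 0.35 to 1.22, adjusted p = 0.0912, and 0.0125 with the block).

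Disagreement between probe sets was not limited to TIMP2. Of the 55 genes, 30 had more than 1 probe set, and in 15 of these the probe sets had log2 fold changes of both signs. No probe set of these 15 genes was called, and for some, such as DCN and MMP3, all probe sets lay in the lowest 25% of the signals. How often signs differ among all genes with several probe sets was not computed. The median gap between the highest and the lowest log2 fold change of a gene was 0.20, and it was above 0.5 for POSTN, P4HA2, TIMP2, ITGA2, PLOD1 and COL5A3. P4HA2 and PLOD1 were the 2 genes with more than 1 called probe set, so that 5 of the 104 probe sets were called lower and 0 higher. Of all 23999 probe sets tested, 296 were called lower and 159 higher. With the block, 6 of the 104 were lower and 1 was higher, and of all genes 3.75% were lower and 2.25% higher. The absence of higher calls thus does not set these probe sets apart.

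**Figure D4:**
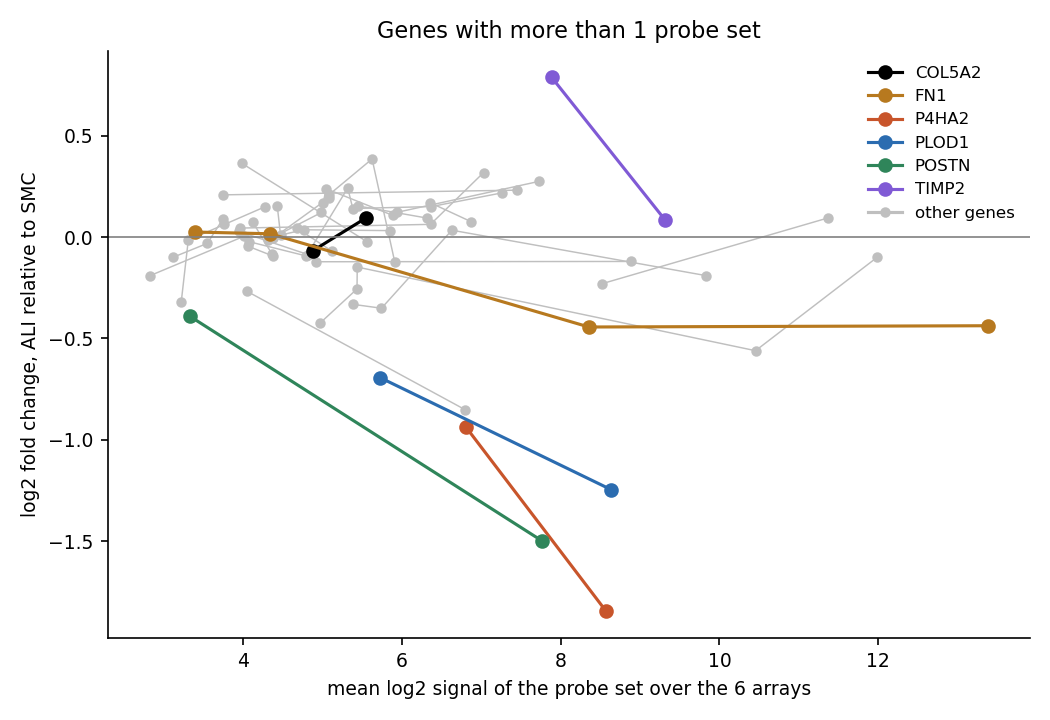
Log2 fold change of ALI relative to SMC against the mean log2 signal over 6 arrays for the 30 genes with more than 1 probe set; each point is a probe set and lines join those of a gene. Both probe sets of P4HA2 and of PLOD1 lie well below 0, those of COL5A2 lie on both sides of 0 (0.09 and -0.07), and those of TIMP2 lie at 0.08 and 0.79.

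A further list of collagen processing and matrix genes held 74 symbols, of which 34 were measured. This list and that of integrin adhesion genes below were written from general knowledge, but with earlier results of these data known. Of these 34 genes, 4 (11.8%) were lower in ALI, against 1.51% of all genes, and 1 (2.94%) was higher, against 1.02%. NID2, a nidogen that bridges laminin and type IV collagen, read 9.54, 9.57 and 9.10 in ALI and 10.91, 11.05 and 10.96 in SMC, a 2.96-fold decrease (log2 fold change -1.57, standard error 0.14, adjusted p = 0.00324). MFAP5, a glycoprotein of microfibrils, read 8.67, 8.47 and 8.65 against 9.71, 10.09 and 9.88, a 2.46-fold decrease (log2 fold change -1.30, standard error 0.13, adjusted p = 0.00388). Both were called with each of the 6 arrays left out (adjusted p up to 0.0241 and 0.0277). SPP1, or osteopontin, a secreted ligand of integrins, read 10.25, 10.78 and 9.84 against 12.03, 11.89 and 11.50, a 2.87-fold decrease (log2 fold change -1.52, standard error 0.24, adjusted p = 0.0216), a call that did not outlast the loss of ALI replicate 1 (0.0977) or of SMC replicates 1 or 2 (0.0676 and 0.116). SDC2, the heparan sulfate proteoglycan syndecan-2, fell by 1.02 and 0.75 on the log2 scale in its 2 probe sets (adjusted p = 0.0132 and 0.0235), the first of which was lost without ALI replicate 1 (0.0634).

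HAS3, a hyaluronan synthase of the plasma membrane, was the 1 gene of this list that was higher. It read 7.47, 7.55 and 6.94 in ALI and 6.49, 5.64 and 5.64 in SMC, a 2.64-fold increase (log2 fold change 1.40, standard error 0.25, adjusted p = 0.0359), and it lost its call without ALI replicates 1 or 2 or SMC replicates 2 or 3 (0.0879 to 0.169). With the block, 6 of the 34 genes (17.6%) were lower, against 3.75% of all genes. CYR61, a matricellular ligand of integrins, and FKBP14, a prolyl isomerase that helps collagen to fold, were those called lower with the block only (log2 fold changes of -0.73 each, adjusted p = 0.0241 and 0.00674; 0.0912 and 0.168 without it). All 3 probe sets of FKBP14 were negative, from -0.73 to -0.62. SERPINH1, the collagen chaperone HSP47, and BMP1, which removes the C-terminal propeptide of procollagens, had log2 fold changes of 0.03 and 0.19 and were not called. The median over the 34 genes was 0.01. Without ALI replicate 1, 2 of the 34 were called lower instead of 4.

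Of 41 listed genes that act at integrin adhesions 20 were measured, and their median log2 fold change was 0.04. In limma 1 of the 20 (5%) was lower in ALI, against 1.51% of all genes, so that the share rests on a single gene, and 0 were higher, against 1.02%, with 2 higher at an unadjusted p under 0.05. CD47, a membrane partner of integrins and a receptor of thrombospondin, read 10.32, 10.50 and 10.33 in ALI and 11.22, 11.03 and 10.89 in SMC. This was a log2 fold change of -0.66 (SE 0.12, adjusted p = 0.0357). The other 2 probe sets of CD47 gave -0.66 and -0.56 and were not called in limma (adjusted p = 0.0767 and 0.239). With the block their adjusted p was 0.0337 and 0.0247. The CD47 call was lost without any 1 array other than SMC replicate 3 (adjusted p from 0.0601 to 0.145). VCL, the adhesion protein vinculin, read 13.13, 13.20 and 12.75 in ALI and 12.44, 12.65 and 12.49 in SMC, which separated the groups (log2 fold change 0.50, adjusted p = 0.141), while the actin linkers TLN1 and FLNA had log2 fold changes that rounded to 0.00.

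**Figure D5:**
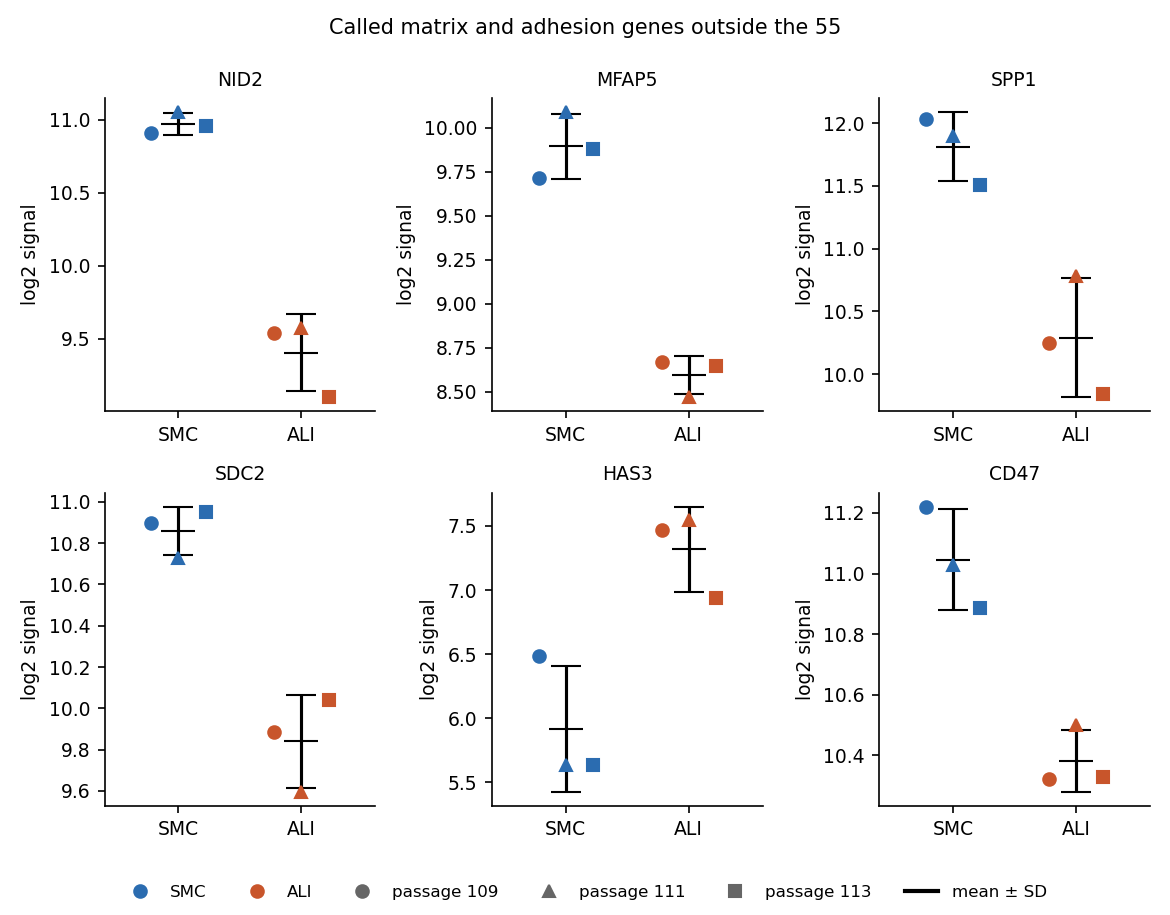
Log2 signal on each array for the called genes outside the 55, with symbols for the passage and black bars for the mean and the SD of 3 arrays. ALI lies below SMC without overlap for NID2, MFAP5, SPP1, SDC2 and CD47 and above SMC for HAS3.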

How the data were processed

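RNA of 3 ALI and 3 SMC cultures of IPEC-1 cells was hybridized to GeneChip Porcine Genome Arrays. Scans were analyzed by the authors in Affymetrix GCOS (version 1.1.1 in the submitters' processing notes), with quality control in arrayQualityMetrics and GC-RMA normalization. The table they deposited holds log2 values per probe set and names no normalization or genome build, and no detection calls were used. A free-text label names liver, against the other labels and the methods, and was not used.

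The deposited log2 values were not scaled again. Of 24123 probe sets, 124 Affymetrix controls were left out. The other 23999 were fitted with limma 3.58.1 (lmFit, eBayes) in R 4.3.3, with culture type as the only factor and Benjamini-Hochberg adjustment over all of them. Probe sets with 1 symbol in the platform annotation (10069) named 6765 genes. Of the remainder, 198 had several symbols, 2 of which include ITGB1BP1, and 13732 had none, and no gene was named from these. All 104 probe sets of the members kept their symbol in RefSeq by gene ID.

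The labels give passages P109, P111 and P113 to 1 ALI and 1 SMC array each. The 2 arrays of a passage deviated together from the means of their groups (correlation 0.34, 0.14 and 0.451). Between arrays of different passages the correlation ran from -0.424 to 0.219. The highest of these, for ALI at P109's SMC array and P111's ALI array, was above the 0.14 within P111, so that the pairing was weak at P111. Passage served as a block in an alternative fit. Single arrays were left out without the block.

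The members, the lists and the tests were chosen with earlier results of these data known. Named are all called genes, all P4HA, PLOD and LOX genes, the 6 matrix genes listed by symbol with COL5A2 and COL3A1, the extremes of each role by log2 fold change and the one with the highest mean, genes called with the block only and called genes of the further lists. Genes beyond this rule are named as further values. Alternatives were quantile normalization, filters that kept mean log2 values over 4 or over 6, an intensity trend, the methods' t-test, averaging all probe sets of a gene, the block and leaving out each array. The fit was tested on simulated data. Precision is limited by the number of arrays. With 3 in each group, the smallest p of an exact permutation test is 0.1.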

Additional observations from a re-analysis of the deposited data

How the results depend on the processing

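P4HA2, NID2 and MFAP5 kept their direction and an adjusted p under 0.05 under every alternative other than the methods' t-test, after which no gene was called. The t-test thus gave 0 lower among the 55 genes instead of 3, 0 lower and 0 higher among the further matrix genes instead of 4 and 1, and 0 lower among the adhesion genes instead of 1. With the passage as a replicate block, 4 of the 55 genes were lower instead of 3 and none was higher, 6 further matrix genes were lower instead of 4 and 1 was higher in both, and 1 adhesion gene was lower in both. The block ended no call. Counting probe sets one by one, a choice made after seeing the data, gave 5 lower instead of 3. Leaving out single arrays gave 1 to 2 of the 55 genes lower and 0 higher, 2 to 4 further matrix genes lower and 0 to 1 higher, and 0 to 1 adhesion genes lower and 0 to 1 higher, the latter VCL without ALI replicate 3. No called difference changed its sign. Quantile normalization and averaging all probe sets of a gene each left 2 of the 55 genes lower, without POSTN. The filters tested 47 and 27 of the 55 genes and called 3. The cause of these differences was not tested. Signals in the lowest 25% of an array limit what can be said of dim genes, since a difference there need not be one of RNA.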
